A study of Mus musculus with 69 samples.

Results

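The response of naive CD8+ T cells (Tnv) to IL-15 was described from 4 of the 69 libraries of the series, 2 of cells given IL-15 and 2 of cells without cytokine (NC). The libraries were chosen by their labels, and no measured value entered the choice. All came from wild type (WT, Stat5a+/+ Stat5b+/+) mice on the C57Bl/6 background, 8 to 16 weeks old, so that no STAT5 allele was missing in either group. CD8+ cells with low CD44 and high CD62L were sorted from lymph nodes and spleen that had been pooled, and poly(A)+ RNA was sequenced. IL-15 was given at 10 ng/ml, for 12 to 16 h by the labels and for up to 18 h by the study's methods. The labels describe the NC cells as cultured too, whereas the methods describe them as processed directly after isolation, so that the cytokine and the time in culture cannot be told apart in any difference below. The study's methods call the libraries of a group biological replicates and speak of 2 or 3 mice in each RNA-seq group, while the labels do not tie a library to a mouse.

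IL-15 is a cytokine of the common gamma chain family. It is presented by IL-15Rα on neighbouring cells to a receptor made of IL-2Rβ (Il2rb) and the common gamma chain (Il2rg), which activates the kinases JAK1 and JAK3 and through them the transcription factors STAT5A and STAT5B. In T cells it is best known for keeping memory CD8+ cells alive and slowly dividing, while naive CD8+ cells, which carry less IL-2Rβ, are thought to rely more on IL-7.

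The 4 libraries held 12191962 to 18563638 counted reads. Levels are given as CPM, a count scaled to its library total, after TMM normalization, with replicates 1 and 2 in this order. Cd8a, a defining marker of the cells, was present throughout, at 1545 and 1476 CPM with NC and 1140.1 and 696 CPM with IL-15. IL-15 replicate 2 stood apart from the other 3 libraries. It held Cd4 at 236 CPM, 22.3% of the mean of 1058.7 ± 39.96 CPM (SD, n = 3) in naive CD4+ T cells of the same series. Cd4 was at 6.41 CPM in IL-15 replicate 1 and 3.99 and 4.69 CPM in the NC libraries. CPM values of the naive CD4+ cells, here and below, were scaled to library totals without TMM. Summed over the 9 markers of regulatory T cells, the level was 684 CPM in IL-15 replicate 2 and 228 CPM in replicate 1. With NC the sum was 94.9 to 102 CPM. Tnfrsf18 made up 134 CPM of the sum in IL-15 replicate 1, against 51.4 and 46.2 CPM with NC. Foxp3 was at 180.5 CPM in IL-15 replicate 2, against 14.9 to 18.7 CPM in the other 3 libraries. Fewer cells of a type and less RNA per cell cannot be told apart in bulk RNA.

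A gene was therefore called only where it passed 2 conditions. In a fit of the 6 WT Tnv libraries (2 of them with IL-7) it had to differ between IL-15 and NC by more than 1.5-fold with an adjusted p under 0.05 (quasi-likelihood test of edgeR, p adjusted after Benjamini and Hochberg). IL-15 replicate 1 by itself also had to lie beyond both NC libraries in the same direction, by more than 1.5-fold from their mean. Of 9838 genes tested, 5.61% (552) were called, with 298 higher (3.03%) and 254 lower (2.58%) with IL-15. The IL-7 libraries differed in sex from the other 4, as Xist was at 2.14 and 5.16 CPM in them against 773 to 1042 CPM, and Ddx3y of the Y chromosome at 155 and 191 CPM against 0.0821 CPM or less. A fit without them called 367 genes. The second condition removed 53 of the 605 genes that passed the first. The median of the higher calls was 1.83-fold and that of the lower calls 2.18-fold, and 23 higher against 44 lower calls passed 4-fold.

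**Figure D1:**
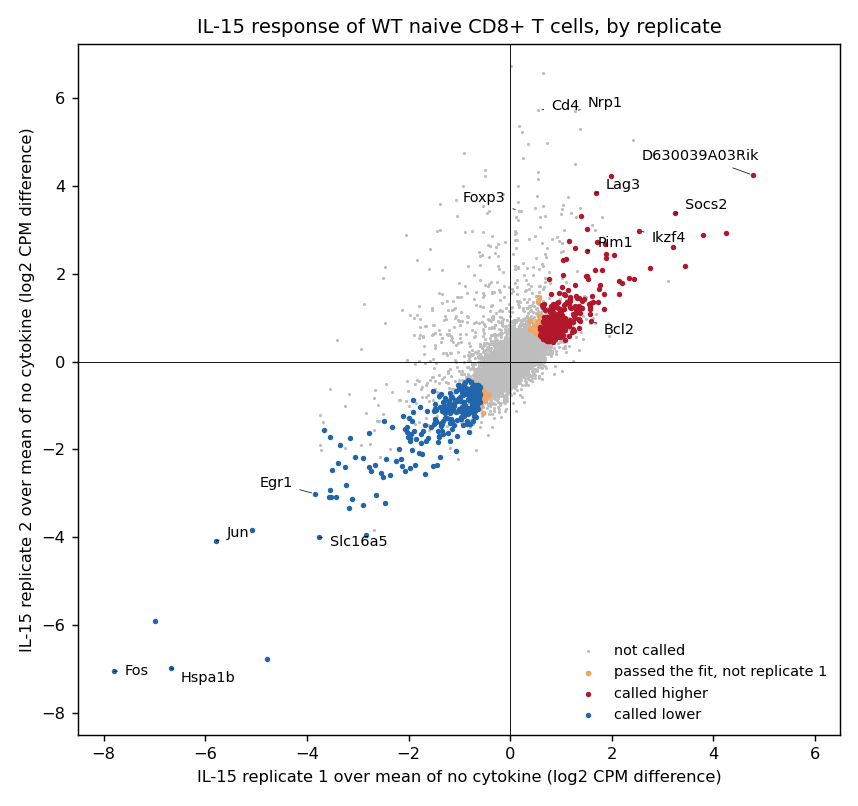
Each point is one of the 9838 genes tested; the axes give its level in IL-15 replicate 1 (horizontal) and replicate 2 (vertical) minus the mean of the 2 NC libraries, on the log2 CPM scale, with called genes in red and blue, and in orange those that passed the fit but not the condition on replicate 1. Called genes lie along the diagonal, which the condition on replicate 1 favours, whereas Cd4, Foxp3 and Nrp1 lie far above it.

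Without IL-15 replicate 2 the same test called 792 genes of 9905 (8% of them, 381 or 3.85% higher and 411 or 4.15% lower), which included 524 of the 552, all in the same direction. The condition on IL-15 replicate 1 had fixed that direction in advance and favoured the overlap, so neither is a check of the calls. Of the 298 higher calls 16 (5.37%) were more than 2-fold higher in naive CD4+ than in naive CD8+ cells without cytokine, against 2.36% of all genes tested. Of the 254 lower calls 43 (16.9%) were more than 2-fold lower in the CD4+ cells, against 4.17% of all. The CD4+ libraries of this ratio held Ddx3y at a mean of 203 CPM and so differed in sex too. Naive CD4+ cells do not stand for the regulatory T cell transcripts of IL-15 replicate 2. Foxp3 was at a mean of 23.9 CPM in the naive CD4+ cells against 180.5 CPM in that library, and Nrp1 at 3.24 against 111 CPM. The ratio can thus miss genes of regulatory T cells. The part of CD4+ cells in those calls, regulatory ones included, was not tested.

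The IL-15 receptor and the JAK-STAT pathway were examined first. Counts of calls in each list below stand beside 3.03% higher and 2.58% lower of all genes tested. The receptor list held 8 genes, of which 7 were tested and 0 called, and the median log2 fold change of IL-15 over NC was −0.12 against 0.01 over all genes tested. Il2rb was at 203 and 197 CPM with NC and at 217 and 306 CPM with IL-15 (log2 fold change 0.39, SE 0.16, adjusted p = 0.169 by edgeR). Il2rg was at 684 and 635 CPM with NC and at 499.5 and 424 CPM with IL-15, and its difference (−0.51, SE 0.11, adjusted p = 0.0366 by edgeR) passed the test of p but not the 1.5-fold limit. Il2ra, the gene of the high-affinity chain for IL-2, was at 5.83 and 2.09 CPM with NC, 5.59 CPM in IL-15 replicate 1 and 42.8 CPM in replicate 2, which is the library with Foxp3. Replicate 1 thus lay within the NC libraries for Il2ra.

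STAT5A and STAT5B carry the signal to the nucleus. Stat5a was at 104 and 91.0 CPM with NC and 74.7 and 101 CPM with IL-15, so that the groups overlapped, and Stat5b at 257 and 249 CPM with NC and 260.8 and 351.8 CPM with IL-15. Neither was called (adjusted p = 0.797 and 0.286 by edgeR). Jak3 was at 318 and 327 CPM with NC and 157 and 373 CPM with IL-15, and was not called (adjusted p = 0.628 by edgeR). Its log2 difference from NC was −1.03 in IL-15 replicate 1 and 0.21 in replicate 2, the library with Cd4 and Foxp3.

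Of the 15 feedback inhibitors of JAK-STAT signalling 2 were higher and 1 lower, against 3.03% and 2.58% of all genes tested. The median log2 fold change was 0.21. Socs2, a STAT5 target that dampens cytokine receptors (chromosome 10 of GRCm38, 95385362 to 95417180, minus strand), rose from 0.738 and 0.904 CPM to 8.95 and 9.84 CPM. The groups were far apart, with a log2 fold change of 3.49 (SE 0.40, adjusted p = 0.00546 by edgeR). Pias3, which encodes an inhibitor of STAT proteins, rose by 0.71 (SE 0.15, adjusted p = 0.0357 by edgeR), and its call was lost without IL-15 replicate 2. Ptpn6, the gene of the phosphatase SHP-1, went from 370.2 and 389.6 to 206 and 226 CPM (log2 fold change −0.81, SE 0.09). Cish, another STAT5 target, was at 15.1 and 11.1 CPM with NC and 17.2 and 29.4 CPM with IL-15 and was not called (adjusted p = 0.0869 by edgeR). Socs1 was at 62.6 and 83.4 CPM with NC and 103 and 103 CPM with IL-15 and Socs3 at 153 and 223 CPM with NC and 220.4 and 883 CPM with IL-15. Neither of these was called, and for Socs3 only IL-15 replicate 2 lay above both NC libraries.

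Genes of cell survival and death were among those that rose. Pim1 and Pim2 encode serine/threonine kinases that act downstream of STAT5, and both were called, while the third member of the family, Pim3, was not (log2 fold change −0.44). Pim2 (chromosome X of GRCm38, 7878262 to 7883432, plus strand) was at 148 and 148 CPM with NC and 299.8 and 287 CPM with IL-15, a log2 fold change of 0.98 (SE 0.09, adjusted p = 0.00360 by edgeR). Pim1 (chromosome 17 of GRCm38, 29490753 to 29496112, plus strand) was at 83.1 and 135 CPM with NC and 302 and 608 CPM with IL-15, a log2 fold change of 2.06 (SE 0.35, adjusted p = 0.0184 by edgeR). Both genes were higher in each IL-15 library than in either NC library, and for Pim1 IL-15 replicate 2 was the higher one. The Pim1 call was lost in a fit of the 4 libraries alone.

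The BCL-2 family had 18 members, 11 of them tested, with 2 called higher (against 3.03% of all genes tested) and a median of 0.36. Bcl2, the inhibitor of apoptosis (chromosome 1 of GRCm38, 106538178 to 106714274, minus strand), was at 376 and 335 CPM with NC and 1073 and 672 CPM with IL-15, a log2 fold change of 1.29 (SE 0.21, adjusted p = 0.0154 by edgeR). Bcl2l11 encodes BIM, which opposes BCL-2 and promotes death (chromosome 2 of GRCm38, 128126038 to 128162547, plus strand). It rose as well, from 70.7 and 71.3 CPM to 140.3 and 162 CPM, by 1.09 (SE 0.09, adjusted p = 0.00249 by edgeR). The 2 called members thus have opposite roles. In a fit of the 4 libraries alone the Bcl2 call was lost. Mcl1, an inhibitor of apoptosis, was at 614 and 675 CPM with NC and 753 and 912 CPM with IL-15 and was not called.

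**Figure D2:**
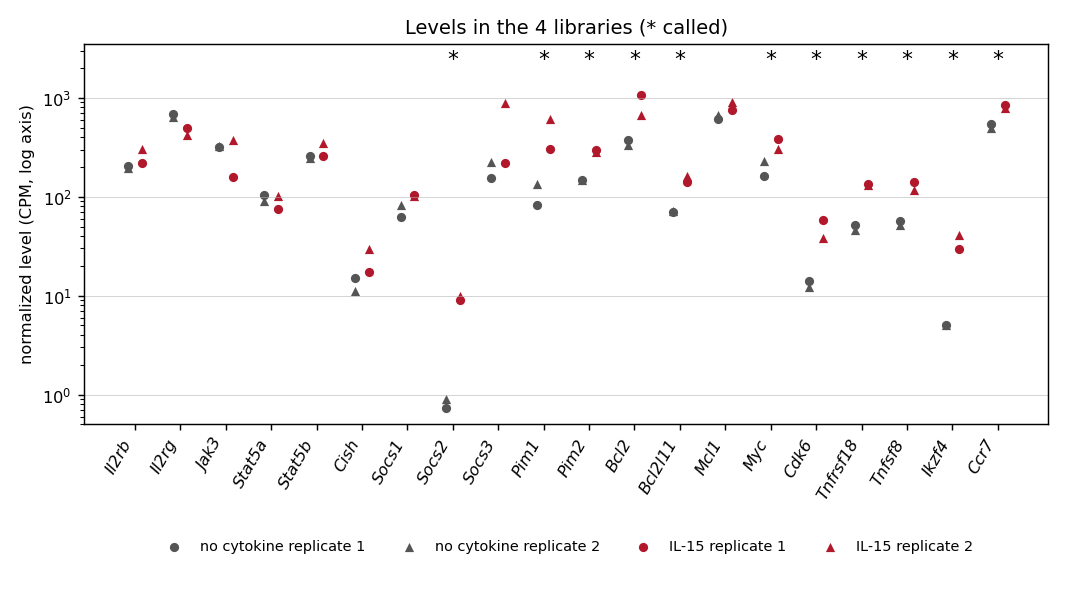
Level in each of the 4 libraries (vertical axis, CPM on a log scale) of 20 genes, of the IL-15 pathway and others named in the text. Cdk6, Tnfrsf18, Tnfsf8 and Ikzf4 were named for their calls in these data. Circles are replicate 1 and triangles replicate 2, grey is NC and red IL-15, and a star marks a call. Socs2 shows a wide gap between the groups, and for Jak3 the triangle with IL-15 lies near the NC libraries while the circle lies below them.

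Genes of growth and division followed. In the network of MYC and MAX 2 of 10 tested genes were called, both higher, against 3.03% higher and 2.58% lower of all genes tested. Myc (chromosome 15 of GRCm38, 61985391 to 61990374, plus strand) was at 162 and 227 CPM with NC and 381 and 300.5 CPM with IL-15, a log2 fold change of 0.81 (SE 0.18, adjusted p = 0.0382 by edgeR), and Mxi1, which opposes MYC, rose by 0.77 (SE 0.10). The Myc call was lost in a fit of the 4 libraries alone and without either NC library. Of the 18 tested G1 cyclins, kinases and inhibitors 1 was called, Cdk6 (chromosome 5 of GRCm38, 3341485 to 3531008, plus strand), the kinase that with cyclin D starts the cell cycle. It was at 14.1 and 12.2 CPM with NC and 58.2 and 38.5 CPM with IL-15, a log2 fold change of 1.88 (SE 0.22, adjusted p = 0.00559 by edgeR). Its partners Ccnd2 (773 and 630.2 CPM with NC and 637 and 454 CPM with IL-15) and Ccnd3 (268 and 243 CPM with NC and 219 and 205 CPM with IL-15) were not called. Among 30 genes of DNA replication 1 was higher, Pole (0.75, SE 0.11), and among 12 of mitosis 1 was lower, Kif23 (−1.28, SE 0.15).

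Lists of biosynthesis and energy gave 0 calls in either direction. These were glycolysis and the pentose phosphate pathway (23 genes tested, median log2 fold change −0.05), subunits of oxidative phosphorylation (74, −0.06), ribosome biogenesis (59, −0.15), cytosolic ribosomal proteins (75, −0.35), aminoacyl-tRNA synthetases (20, −0.12), chaperonins and mitochondrial chaperones (14, −0.12), nucleotide, serine and one-carbon synthesis (27, −0.11), mitochondrial ribosomal proteins (76, 0.06) and proteasome subunits (31, 0.05). All 75 ribosomal protein genes had a negative log2 fold change, and the median was −0.10 in IL-15 replicate 1 and −0.63 in replicate 2. Of 44 translation factors 1 was called, Eif1, which fell by 0.69 on the log2 scale, and of 26 importins and exportins 1, Kpna2 (0.84, SE 0.11). The amino acid transporter Slc7a5 was at 78.8 and 78.2 CPM with NC and 58.4 and 71.5 CPM with IL-15, and its partner Slc3a2 at 129.8 and 147 CPM with NC and 104 and 107 CPM with IL-15. Slc3a2 passed the test of p (adjusted p = 0.0354 by edgeR) but not the 1.5-fold limit and Slc7a5 passed neither, and the 1 called transporter of 11 was Slc16a10, with a log2 fold change of −1.38 (SE 0.24).

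In the synthesis of cholesterol and fatty acids 5 of 28 tested genes were higher and 1 was lower, against 3.03% and 2.58% of all. Among the higher ones were the late enzymes Sqle, Msmo1 and Sc5d and the sterol sensor Insig1, at log2 fold changes of 0.60 to 0.74. Insig1 was at 32.9 and 33.3 CPM with NC and 52.5 and 55.6 CPM with IL-15 (adjusted p = 0.0163 by edgeR). Scd2, which puts a double bond into fatty acids, went the other way, from 98.4 and 85.5 CPM to 26.9 and 29.1 CPM (−1.71, SE 0.11, adjusted p = 0.00157 by edgeR). Without IL-15 replicate 2 the list gave 8 higher and 2 lower calls. In the citric acid cycle 1 of 22 genes was higher, Idh1 (0.98, SE 0.24), a call lost without any one of the 4 libraries.

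Of 16 tested receptors and ligands of the TNF superfamily 4 were called higher and 0 lower (median 0.30), against 3.03% and 2.58% of all genes. Tnfrsf18, which encodes the costimulatory receptor GITR (chromosome 4 of GRCm38, 156026164 to 156028895, plus strand), was at 51.4 and 46.2 CPM with NC and 134 and 132 CPM with IL-15, a log2 fold change of 1.45 (SE 0.08, adjusted p = 0.00118 by edgeR). Tnfrsf26, a receptor gene of the same family, went from 56.7 and 55.3 to 144 and 135 CPM (1.31, SE 0.09), and Tnfsf8, which encodes CD30 ligand, from 56.5 and 52.1 to 141 and 117 CPM (1.25, SE 0.12). For these 3 genes the IL-15 replicates were nearly alike. The fourth, Tnfrsf25, was at 23.4 and 16.2 CPM with NC and 33.9 and 57.1 CPM with IL-15, and without IL-15 replicate 2 the list gave 3 higher calls. Tnfrsf18 and Tnfsf8 are also among the markers of regulatory and of CD4+ T cells, and both rose in IL-15 replicate 1, where Cd4 was at 6.41 and Foxp3 at 18.7 CPM. Whether such cells had a part in these rises was not tested.

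Homing genes were called in both directions. Tcf7 was at 1353 and 1419.9 CPM with NC and 1224 and 1594 CPM with IL-15, and Il7r at 572 and 677 CPM with NC and 635 and 512 CPM with IL-15, neither called. Ccr7, the chemokine receptor that guides cells into lymph nodes, rose from 541 and 501 to 840.1 and 784 CPM (0.64, SE 0.10, adjusted p = 0.0124 by edgeR), and S1pr4, a receptor for sphingosine 1-phosphate, rose by 0.81 (SE 0.12). Among 20 tested homing genes these 2 were higher and 7 lower, against 10 lower without IL-15 replicate 2. The lower ones included Cxcr4, the receptor for CXCL12, from 239.8 and 261 to 78.2 and 42.5 CPM (−2.06, SE 0.26, adjusted p = 0.00715 by edgeR), and Itgae, the integrin CD103 of epithelial homing, from 299 and 217 to 73.4 and 60.1 CPM (−1.95, SE 0.22, adjusted p = 0.00544 by edgeR). Ly6c2 went from 124 and 98.4 to 15.4 and 6.96 CPM, Ccr9 from 190.2 and 174 to 70.0 and 40.5 CPM, and Itgal, of the integrin LFA-1, from 687 and 678 to 343 and 439.9 CPM. Itgae, Ly6c2 and Ccr9 are lower in CD4+ than in CD8+ naive cells, by log2 ratios of −7.22, −5.87 and −4.42, and for these 3 genes IL-15 replicate 2 was the lowest library. In IL-15 replicate 1 too they lay below both NC libraries. The part of CD4+ cells in these falls was not tested.

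Transcription factors were listed by the naive and by the effector state. In the naive list 1 of 15 rose and 1 fell, where 3.03% of all genes tested rose and 2.58% fell. Bach2, which restrains effector differentiation, went from 155 and 167 to 268 and 254 CPM (0.69, SE 0.09), and Tox from 53.7 and 56.2 to 25.1 and 25.6 CPM (−1.12, SE 0.09, adjusted p = 0.00226 by edgeR). In the effector and memory list 1 of 14 rose, Id2, from 170.0 and 176 to 312 and 235 CPM (0.66, SE 0.15). The IL-15 replicates disagreed for this list, with a median log2 difference from NC of −0.51 in replicate 1 and 0.49 in replicate 2. Replicate 2 is the library with Cd4 and Foxp3. For the naive list these medians were −0.18 and 0.05. Eomes was at 69.5 and 75.1 CPM with NC and 57.7 and 48.4 CPM with IL-15 and was not called. Tbx21, the gene of T-bet, was at 3.40 and 3.67 CPM with NC and 0.575 and 4.52 CPM with IL-15 and too low to be tested. Cd44 was at 19.3 and 31.2 CPM with NC, 7.06 CPM in IL-15 replicate 1 and 42.3 CPM in replicate 2, so that the IL-15 replicates lay on either side of the NC libraries.

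No gene of the cytotoxic list was called higher. Of 13 tested genes 0 were higher and 2 lower, against 3.03% and 2.58% of all genes, with a median of −0.47. Prf1, which encodes perforin (chromosome 10 of GRCm38, 61297833 to 61304680, plus strand), went from 113 and 100.3 CPM to 28.0 and 26.4 CPM (−1.97, SE 0.17, adjusted p = 0.00256 by edgeR). Ctsw, a cathepsin of cytotoxic cells, went from 437 and 384 to 228 and 160.1 CPM (−1.08, SE 0.18). Gzmb was at 2.66 and 0.791 CPM with NC and 1.64 and 2.38 CPM with IL-15, and Ifng at 8.05 and 0.508 CPM with NC and 0.246 and 0.367 CPM with IL-15. The first NC library alone held most of the Ifng counts, and neither gene was called. Of the inhibitory receptors and ligands 2 of 12 were lower, Cd274, the gene of PD-L1 (−1.11, SE 0.09), and Cd160 (−2.86, SE 0.46). Lag3 was higher, at 1.70 and 1.69 CPM with NC, 5.75 CPM in IL-15 replicate 1 and 26.3 CPM in replicate 2, and its call was lost without replicate 2 (adjusted p = 0.0684 by edgeR).

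Among the 15 largest rises were genes that no list held. D630039A03Rik, a gene of unknown function (chromosome 4 of GRCm38, 57908483 to 57916297, minus strand), went from 0.295 and 0.282 CPM to 11.8 and 8.06 CPM (5.06, SE 0.34, adjusted p = 0.00157 by edgeR). Dyrk4, a protein kinase gene, went from 0.886 and 0.395 to 14.0 and 5.56 CPM (3.96, SE 0.58), and Pgpep1l from 2.88 and 1.36 to 29.3 and 15.5 CPM (3.43, SE 0.44). Ikzf4, which encodes the transcription factor Eos (chromosome 10 of GRCm38, 128630843 to 128645991, minus strand), went from 5.02 and 5.03 to 29.7 and 40.7 CPM (2.81, SE 0.20, adjusted p = 0.00157 by edgeR). Gpr83 went from 4.36 and 4.69 to 13.1 and 37.6 CPM (2.49, SE 0.49). Ikzf4 and Gpr83 mark regulatory T cells, and in IL-15 replicate 1 alone Ikzf4 was 2.53 above NC on the log2 scale and Foxp3 0.17. The part of regulatory T cells in both rises was not tested.

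The other large rises ran from 2.26 to 3.06 on the log2 scale, apart from Socs2 and Lag3 above. They were Drc1, the guanylate cyclase gene Gucy1a3, Vsig10, Ecm1, 9930111H07Rik, Tbx18, Sema6c and Pde5a, a phosphodiesterase of cyclic GMP. Gucy1a3 went from 1.62 and 0.565 to 10.2 and 6.66 CPM, and Ecm1, which encodes a secreted matrix protein, from 10.7 and 10.3 to 34.4 and 70.3 CPM. Levels of most of these genes stayed low. Tbx18 and Sema6c did not pass 10 CPM in any of the 4 libraries, and Vsig10 was called only with IL-15 replicate 2 included.

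Many of the largest falls were of genes that respond within minutes to stimulation or stress. The 30 immediate early genes, of which 27 were tested, gave 15 lower and 0 higher calls (55.6% lower against 2.58% of all genes), with a median log2 fold change of −2.10. Fos, a subunit of the transcription factor AP-1 (chromosome 12 of GRCm38, 85473890 to 85477273, plus strand), was at 343 and 970.0 CPM with NC and 2.46 and 4.22 CPM with IL-15, a log2 fold change of −7.58 (SE 0.62, adjusted p = 0.00249 by edgeR). Jun, its partner (chromosome 4 of GRCm38, 95049034 to 95052222, minus strand), was at 528 and 1021 CPM with NC and 13.1 and 43.0 CPM with IL-15, a log2 fold change of −4.76 (SE 0.58, adjusted p = 0.00640 by edgeR). The NC libraries differed between themselves for both genes, with replicate 2 the higher, but each was far above either IL-15 library.

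Fosb of AP-1, Egr1 of the early growth response family and the Krüppel-like factor gene Klf4 were also called lower. Fosb went from 74.3 and 368 to 1.15 and 2.63 CPM, Egr1 from 97.0 and 175 to 8.95 and 16.0 CPM and Klf4 from 14.6 and 50.5 to 0.657 and 1.77 CPM. Phosphatases that switch off MAP kinases fell too, with Dusp1 from 103 and 277 to 14.4 and 22.2 CPM (−3.37, SE 0.48), Dusp6 from 47.4 and 72.7 to 7.72 and 5.93 CPM (−3.15, SE 0.25) and Dusp2 from 464 and 677 to 123 and 142 CPM (−2.10, SE 0.21). Ppp1r15a, which restarts translation after stress, went from 216 and 457 to 28.9 and 37.2 CPM, and Cd69, an early activation marker, from 67.6 and 122 to 7.72 and 10.5 CPM. Nr4a1, Nr4a2, Nr4a3 and Egr2, which report T cell receptor signals, had log2 fold changes of −1.49 to −3.16 and were not called. Without IL-15 replicate 2 the list gave 20 lower calls.

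Heat shock genes fell with them. Of 21 tested genes of the heat shock and unfolded protein response 10 were lower and 0 higher (median −0.48), and the same numbers were found without IL-15 replicate 2. Hspa1b, an inducible HSP70 gene (chromosome 17 of GRCm38, 34956436 to 34959238, minus strand), was at 146 and 171 CPM with NC and 1.40 and 1.10 CPM with IL-15, a log2 fold change of −7.00 (SE 0.20, adjusted p = 8.38e-05 by edgeR). Hspa1a is a nearly identical neighbour, went from 42.6 and 42.5 to 1.40 and 0.244 CPM, and may share reads with Hspa1b. Dnajb1, a cochaperone of HSP70, went from 239.9 and 248 to 94.5 and 90.7 CPM (−1.40, SE 0.08, adjusted p = 0.00118 by edgeR). Chaperones of the endoplasmic reticulum split, as Hspa5 was lower (−1.25) while Hsp90b1, Pdia3, Pdia4, Pdia6, Calr and Canx lay between −0.22 and 0.01 and were not called.

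**Figure D3:**
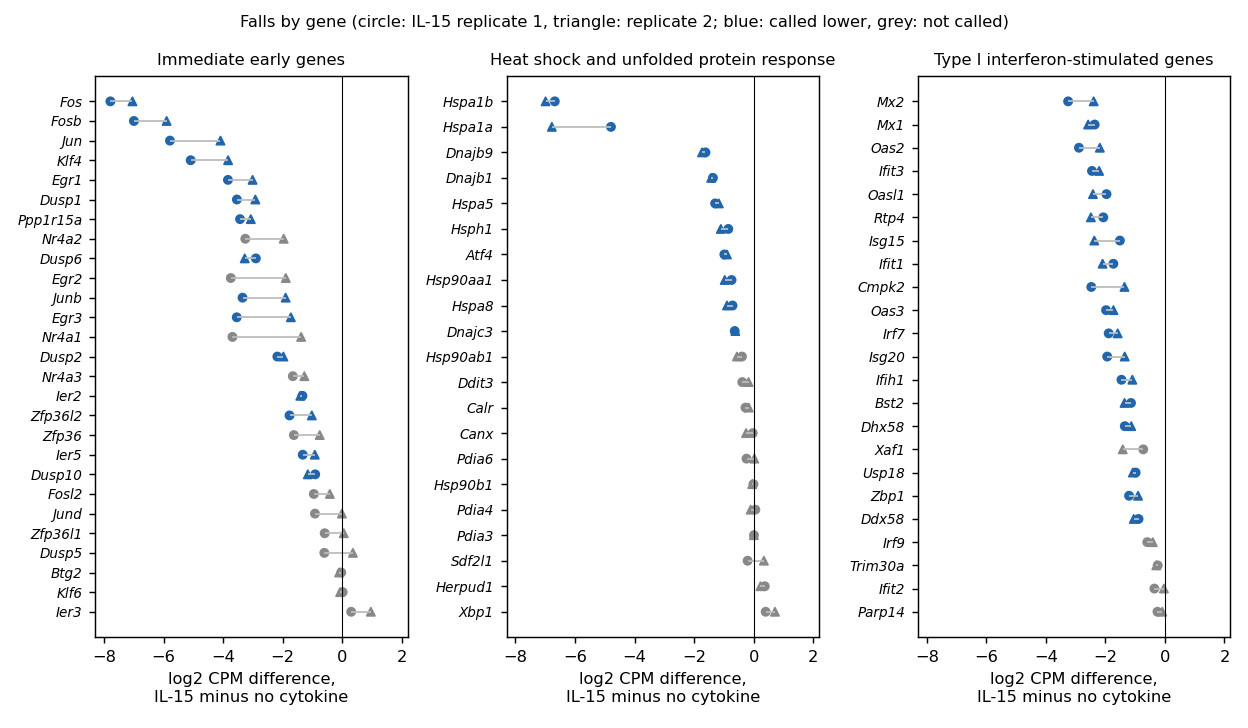
Each row is a gene tested in the list named above its panel; the horizontal axis is the log2 CPM difference of IL-15 replicate 1 (circle) and replicate 2 (triangle) from the mean of NC. Fos, Fosb, Hspa1b and Hspa1a lie farthest to the left, and in the interferon panel all 23 genes lie below 0 in both replicates.

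Genes induced by interferon were lower with IL-15. Of the type I interferon-stimulated genes 27 were listed and 23 tested, and 18 were lower and 0 higher (78.3% lower against 2.58% of all genes), with a median log2 fold change of −1.64. The same counts were found without IL-15 replicate 2. Irf7, the factor that amplifies the interferon response (chromosome 7 of GRCm38, 141262706 to 141266481, minus strand), was at 84.5 and 88.1 CPM with NC and 23.2 and 28.6 CPM with IL-15, a log2 fold change of −1.73 (SE 0.13, adjusted p = 0.00175 by edgeR). Oas3, a sensor of double-stranded RNA, went from 57.6 and 68.0 to 15.8 and 18.8 CPM (−1.86, SE 0.17), and Ddx58, the RNA sensor RIG-I, from 158 and 163 to 86.6 and 77.4 CPM (−0.97, SE 0.08). The antiviral genes Mx1, Mx2, Oas2, Ifit3 and Rtp4 had log2 fold changes of −2.301 to −2.911. The groups did not overlap for any of the 23 genes, whereas 28.9% of all genes tested were lower in both IL-15 libraries than in both NC libraries and 30.3% higher.

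GTPases induced by interferon, which act in defence within cells, gave 7 lower and 0 higher calls of 13 tested (median −1.05), or 9 lower without IL-15 replicate 2. Gbp6 (chromosome 5 of GRCm38, 105270702 to 105293698, minus strand) went from 63.2 and 55.5 to 13.4 and 11.4 CPM (−2.26, SE 0.12, adjusted p = 0.00103 by edgeR), and Gbp9 from 245 and 250.4 to 122 and 118 CPM. Gbp10, which is among the 15 largest falls, went from 26.4 and 35.6 to 2.46 and 3.48 CPM, and genes of this family are alike enough in sequence that reads may have been divided between them. Irgm1 went from 122 and 131 to 53.1 and 51.7 CPM (−1.27, SE 0.13). All 16 tested genes of MHC class I and antigen processing had negative values (median −0.44), and 2 were called, the immunoproteasome subunits Psmb9 (−0.85, SE 0.07) and Psmb10 (−0.71, SE 0.07).

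Markers of other cells moved beside these falls. The summed level of 13 myeloid markers was 55.4 and 111 CPM with NC and 14.0 and 36.4 CPM with IL-15, and none was at 0 in all 4 libraries. Lyz2, the gene of lysozyme, was at 11.4 and 26.4 CPM with NC and 2.71 and 6.72 CPM with IL-15. The 10 B cell markers summed to 197 and 589.9 CPM with NC and 125 and 571 CPM with IL-15, highest in replicate 2 of both groups, and the 7 NK markers to 6.96 CPM or less in every library. The part of myeloid cells in the lower calls was not tested.

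Promoter sequences are shown for the interferon-stimulated genes because these fell together and because the element through which interferon acts is short enough to be searched for. RefSeq promoters on GRCm38.p6, from 250 bases before to 50 after the start of transcription, were matched by symbol for 7609 of the 9838 genes tested. The interferon-stimulated response element was searched on both strands as GAAA, any 2 bases and GAAA again. It was found for 7 of the 11 matched interferon-stimulated genes called lower (63.6%), 19 of 171 lower calls (11.1%), 5 of 227 higher calls (2.2%), 298 of the 7609 genes (3.92%) and 1131 of all 32851 promoters (3.44%). The 19 include those 7. The list was drawn up as targets of interferon, so its share of this element says nothing about IL-15. A match is a description of the sequence and not a site shown to be bound. Stretches of 90 bases that lie wholly before the start are given, 5′ to 3′ on the strand of the gene, with matches in capitals (overlapping matches run together):
Ifit1 (chr19:34640764-34640853, plus strand): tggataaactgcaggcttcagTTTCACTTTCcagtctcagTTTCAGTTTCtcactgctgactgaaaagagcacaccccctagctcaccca
Ifit3 (chr19:34583367-34583456, plus strand): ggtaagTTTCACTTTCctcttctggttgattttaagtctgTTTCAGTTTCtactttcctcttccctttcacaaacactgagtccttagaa
Isg15 (chr4:156200835-156200924, minus strand): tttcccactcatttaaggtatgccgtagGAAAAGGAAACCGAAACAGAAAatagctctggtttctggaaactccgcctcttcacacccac
Oas3 (chr5:120777685-120777774, minus strand): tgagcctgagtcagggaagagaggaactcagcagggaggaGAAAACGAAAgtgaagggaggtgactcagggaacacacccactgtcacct
Bst2 (chr8:71537547-71537636, minus strand): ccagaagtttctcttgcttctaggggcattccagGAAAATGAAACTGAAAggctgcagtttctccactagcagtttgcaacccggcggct

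STAT5 binds the sequence TTCNNNGAA, which reads alike on both strands. It was found in 2726 of all promoters (8.3%), in 653 of the 7609 genes tested (8.58%), in 18 of 227 higher calls (7.93%) and in 18 of 171 lower calls (10.5%). Of the 60 genes named from the pathway or for the size of their change, 46 had a promoter and 6 of these held the sequence, which says nothing of sites farther away. The 4 with a match before the start are Il7r, Socs3 and Ifng, which were not called, and Tspan9, which encodes a tetraspanin and went from 52.9 and 52.8 to 5.75 and 5.13 CPM. They are shown in the same way, with TTCNNNGAA in capitals:
Il7r (chr15:9529970-9530059, minus strand): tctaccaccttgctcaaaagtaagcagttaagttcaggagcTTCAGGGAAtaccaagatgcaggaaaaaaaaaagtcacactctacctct
Socs3 (chr11:117969472-117969561, minus strand): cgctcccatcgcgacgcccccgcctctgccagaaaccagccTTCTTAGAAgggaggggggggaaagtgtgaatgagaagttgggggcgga
Ifng (chr10:118440796-118440885, plus strand): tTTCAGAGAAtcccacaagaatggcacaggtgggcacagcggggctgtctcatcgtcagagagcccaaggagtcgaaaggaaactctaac
Tspan9 (chr6:128095581-128095670, minus strand): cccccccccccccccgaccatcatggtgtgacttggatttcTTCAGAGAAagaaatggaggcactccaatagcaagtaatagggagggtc

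Genes of quiescence and targets of FOXO factors gave 4 higher and 1 lower call among 21 tested, against 3.03% and 2.58% of all genes. Fnip1, a regulator of nutrient sensing, Slfn2, which holds T cells in quiescence, Trib2 and Sesn1 rose by 0.63 to 0.99 on the log2 scale. Slfn2 was at 287 and 259 CPM with NC and 433 and 409 CPM with IL-15. Ddit4, an inhibitor of mTORC1 that responds to stress and glucocorticoids, went from 272 and 168 to 47.7 and 45.6 CPM (−2.23, SE 0.23, adjusted p = 0.00403 by edgeR). Klf2 was at 634 and 883 CPM with NC and 1102 and 1396 CPM with IL-15 and was not called (adjusted p = 0.0837 by edgeR). Lists that gave 0 calls beside those above were the T cell receptor complex (18 tested) and NK receptors (4 tested). Over all 9838 genes, 2880 had an unadjusted p under 0.05.

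**Figure D4:**
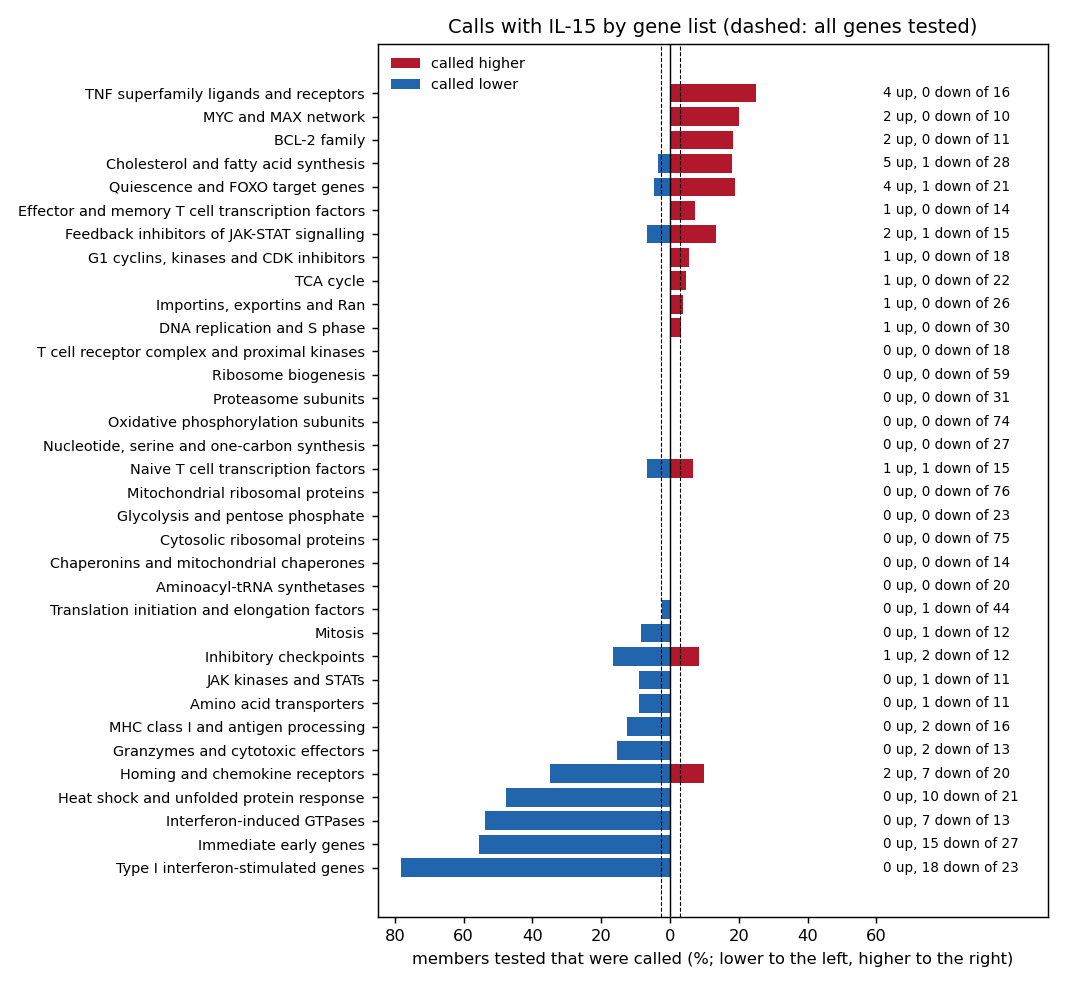
Bars give the percentage of the tested members of each list that were called lower (blue, to the left) or higher (red, to the right) with IL-15, for lists with 10 or more tested members, and the dashed lines give it for all genes tested. Type I interferon-stimulated genes reach 78.3% lower and immediate early genes 55.6%, while the highest share of higher calls is 25% in the TNF superfamily.

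Whether memory cells respond alike was tested with interactions, in which the response of another cell population, measured against NC libraries of its own, was subtracted from that of WT Tnv. The memory (Tcm, CD44 high CD62L high) and effector (Tem, CD44 high CD62L low) CD8+ cells came from WT mice too, with 2 libraries a group, and one fit held all 12 libraries. Against Tcm the response differed for 78 of 10061 genes (0.775%), of which 15 (0.149%) were more positive in Tnv and 63 (0.626%) more negative. This count fell to 3 without NC replicate 1 of Tnv or without IL-15 replicate 1 of Tcm, and rose to 282 without IL-15 replicate 1 of Tnv. Leaving out IL-15 replicate 2 of Tnv gave 37.

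DNA replication set Tcm and Tnv apart. Of 37 tested genes of the list 8 were more positive in Tcm, and the medians of the log2 response were 0.12 in Tnv and 1.09 in Tcm. Mcm5, a subunit of the replicative helicase, changed by −0.10 in Tnv and 1.57 in Tcm (difference −1.67, SE 0.14, adjusted p = 0.00194 by edgeR). In cholesterol and fatty acid synthesis 9 of 28 genes were more positive in Tcm, among them Cyp51 (0.51 in Tnv, 2.02 in Tcm, adjusted p = 0.0113 by edgeR), and in nucleotide and one-carbon synthesis 6 of 27. Slc7a5 had a log2 response of −0.28 in Tnv and 0.92 in Tcm.

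Interferon-induced GTPases differed in the same comparison. Of 13 genes 6 were more negative in Tnv, with medians of −1.05 in Tnv, −0.10 in Tcm and 0.20 in Tem. Gbp6 changed by −2.27 in Tnv and −0.49 in Tcm (adjusted p = 0.0156 by edgeR). Of the 24 type I interferon-stimulated genes only Oas3 was called (medians −1.46 and −0.97). Immediate early genes did not pass the test in any member, with medians of −2.11 in Tnv, −2.15 in Tcm and −1.86 in Tem. Il7r changed by −0.13 in Tnv and fell in Tcm (−1.28, adjusted p of the difference 0.0338 by edgeR).

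Against Tem 3 genes differed (0.0298%), all more negative in Tnv. They were Slc16a5, Pmepa1 and Epsti1. Slc16a5, a member of the monocarboxylate transporter family (chromosome 11 of GRCm38, 115462474 to 115474398, plus strand), was at 38.7 and 38.1 CPM in Tnv with NC and 2.71 and 2.26 CPM with IL-15 (−3.95, SE 0.17, adjusted p = 0.000335 by edgeR). Its response was −1.32 in Tem and −0.79 in Tcm, and both differences passed the test. With no filter on low counts 122 genes differed from Tem and with DESeq2 56, so that the number depends on the processing.

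Mice with a single STAT5 allele were compared in the same way. AAB mice (Stat5a-/- Stat5b+/-) keep 1 allele of Stat5b and BBA mice (Stat5a+/- Stat5b-/-) 1 allele of Stat5a in all their cells, and both deletions are in the germline, so that cells could differ from WT before the cytokine is given. In 12 Tnv libraries of the 3 genotypes the IL-15 response of WT differed from that of BBA for 2.42% of 10386 genes (251), with 86 (0.828%) above and 165 (1.59%) below it in WT. It differed from that of AAB for 33 genes (0.318%), with 25 (0.241%) above and 8 (0.077%) below. With any one of 7 of the 8 libraries left out the count against AAB was 0 by edgeR (647 to 958 genes with an unadjusted p under 0.05), and without IL-15 replicate 1 of WT it was 53. The fit of all 48 CD8+ libraries gave 84 against BBA and 6 against AAB. Both comparisons share the WT libraries. The IL-15 libraries of BBA were the shallowest of the 12, at 7125235 and 7998272 counted reads, and a part of depth was not tested. Most of the 165 negative differences are not described below.

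Genes of growth were among the positive differences. Myc changed by 0.79 in WT and −1.52 in BBA (difference 2.30, SE 0.32, adjusted p = 0.00897 by edgeR). In ribosome biogenesis 12 of 59 genes were more positive in WT and 1 more negative, with medians of −0.18 in WT, −0.57 in AAB and −0.61 in BBA. Nop2, a methyltransferase of ribosomal RNA, changed by −0.22 in WT and −1.34 in BBA, and Polr1a, the large subunit of RNA polymerase I, by −0.13 and −1.05. Slc7a5 changed by −0.30 in WT, −1.55 in AAB and −1.63 in BBA, and both differences passed the test (adjusted p = 0.0367 and 0.00840 by edgeR). The ribosome biogenesis medians of both mutants were thus the more negative ones.

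Single genes differed between WT and BBA too. Cdk6 changed by 1.85 in WT and −0.66 in BBA (adjusted p = 0.0305 by edgeR), Tnfsf8 by 1.23 and −0.10 (adjusted p = 0.0229 by edgeR), Ecm1 by 2.30 and −0.04 (adjusted p = 0.0288 by edgeR), and Socs1, not called in WT, by 0.47 and −0.87 (adjusted p = 0.00995 by edgeR). Itgae, which fell in WT (−1.98), changed by −0.34 in BBA. For Socs2, Pim1, Pim2, Bcl2 and Bcl2l11 no difference from BBA passed the test, and the log2 responses in BBA were 3.78, 0.81, 0.60, 0.73 and 0.25. Immediate early genes (medians −1.82 in WT and −1.88 in BBA) and type I interferon-stimulated genes (−1.76 and −1.40) had 0 calls against BBA among 26 and 27 tested, while 2 heat shock genes and 2 interferon-induced GTPases were more positive in WT.

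**Figure D5:**
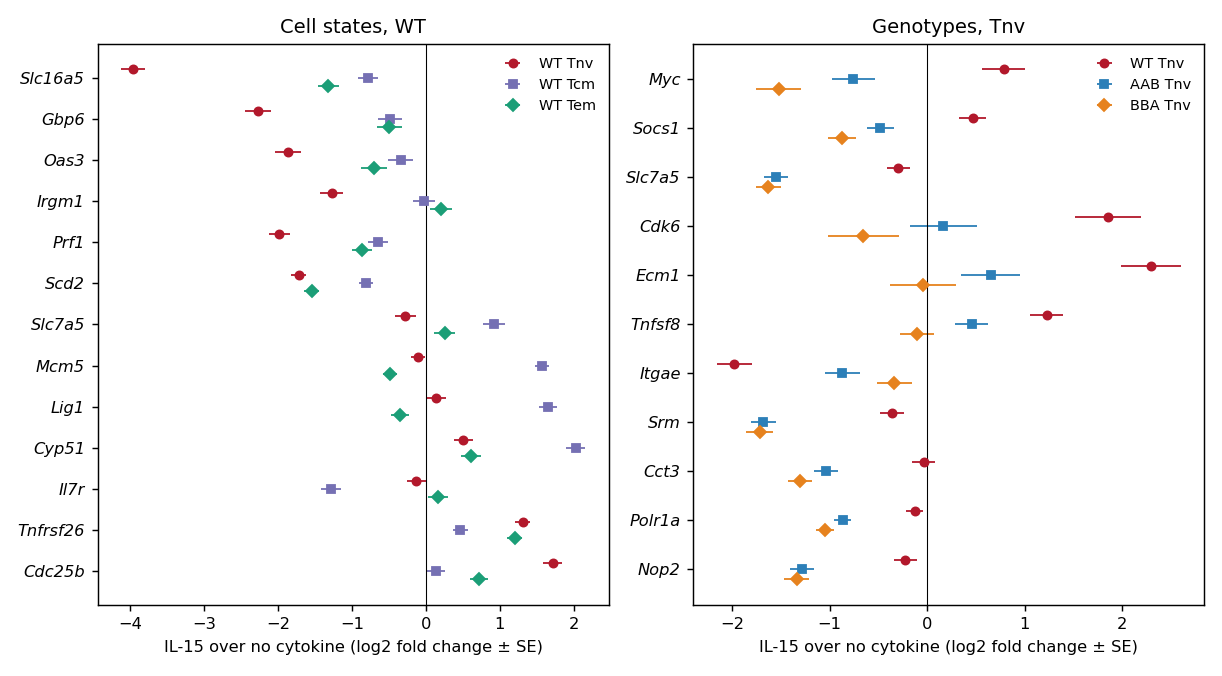
Log2 fold change of IL-15 over NC (horizontal axis, with bars of 1 SE) for 13 genes in WT Tnv, Tcm and Tem (left) and 11 genes in Tnv of WT, AAB and BBA (right), each panel from one fit of 12 libraries. Red circles of WT Tnv lie apart from Tcm for Mcm5, Lig1 and Cyp51, and to the right of both mutants for Myc, Slc7a5 and Cdk6. Slc7a5 passed the test of the difference against both mutants, whereas Myc and Cdk6 passed it against BBA only.

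The strength of the calls differed. Of the 78 called genes named by rule, 11 were called under all 15 alternative settings: Hspa1b, Dnajb1, Slc16a5, Gbp6, Gbp9, Irf7, Scd2, Ikzf4, Tnfrsf18, Tnfrsf26 and D630039A03Rik. A further 16 were lost under Bonferroni adjustment alone, among them Fos, Egr1, Dusp6, Prf1 and Bcl2l11. In the fit of the 4 libraries alone 13 of the 78 lost their call, among them Pim1, Bcl2 and Myc. Without NC replicate 2, 48 of the 78 lost their call and without NC replicate 1, 32, among the latter Socs2, Pim1, Bcl2 and Myc. Over all genes 73 and 182 were then called, in fits where 1 library of a group remained and was assumed to vary like the others.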

How the data were processed

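Poly(A)+ RNA of sorted CD8+ T cells was sequenced as single reads. The authors aligned the reads with TopHat2 and deposited raw counts of reads per gene from HTSeq, and these counts were used here. The labels name the build mm9 and the study's methods mm10; the gene annotation and the strand setting are not given in the sources used here, so that reads of overlapping or antisense genes cannot be told apart.

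Counts were normalized by TMM and tested with edgeR 4.0.16 (R 4.3.3; quasi-likelihood test, Benjamini-Hochberg adjustment), in a fit of the 6 WT Tnv libraries without a replicate block. Genes passed a filter on similarity between replicates, with more than 84.9 normalized counts in at least 1 library. A call required an adjusted p under 0.05, a change of more than 1.5-fold, and IL-15 replicate 1 by itself beyond both NC libraries in that direction by more than 1.5-fold from their mean (log2 CPM, prior count 2). Interactions were tested in fits of 12 libraries, where the condition instead asked that the response of IL-15 replicate 1, minus the mean response of the other population, went in the direction of the difference by more than 1.5-fold. The fit was tested on simulated counts, in which all genes and libraries had the same spread and no library stood apart. Such counts cannot show how the fit handles IL-15 replicate 2. The smallest p that an exact permutation test of 2 against 2 libraries can give is 0.333, and no such test was used. Replicates differed beyond counting error and were counted as separate libraries.

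Named genes were 31 fixed ones, the 15 largest rises and 15 largest falls with a mean of 50 or more normalized counts and no overlap between groups, and up to 3 calls in each direction per list. Other genes were named after their values were seen, as was the interferon element chosen. The members and lists were chosen with earlier results of these data known. Positions are from GRCm38 and promoters from RefSeq. Alternatives were the filter, the scaling, DESeq2 1.42.0, thresholds, the replicate block, the libraries fitted and each library left out. For the interactions, a count without that condition was added after seeing the data; the condition had removed no gene, so this is no separate test of the counts. A few single-gene results are not reported here.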

Additional observations from a re-analysis of the deposited data

Results flagged for a closer look

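These genes responded to IL-15 differently in WT Tnv and in another population, by a test of the difference itself (edgeR, adjusted p under 0.05). Values are the log2 response of WT Tnv minus that of the other population. Against Tcm the difference was 1.15 for Il7r, 0.84 for Tnfrsf26, −0.91 for Scd2, −1.20 for Slc7a5, −1.25 for Irgm1, −1.33 for Prf1, −1.53 for Oas3, −1.78 for Gbp6 and −3.17 for Slc16a5. Against Tem it was −2.64 for Slc16a5. Against BBA it was 2.51 for Cdk6, 2.34 for Ecm1, 2.30 for Myc, 1.34 for Socs1, 1.33 for Slc7a5, 1.33 for Tnfsf8 and −1.64 for Itgae. Against AAB it was 1.25 for Slc7a5. No cause was tested for any of them.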

How the results depend on the processing

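The 552 genes called in WT Tnv became 270 above 2-fold, 22 under Bonferroni adjustment, 1009 with no filter on low counts (where the median of all genes shifted to 0.11), 367 in a fit of the 4 libraries alone, and 73 to 1141 with 1 library left out (73 without NC replicate 2, 182 without NC replicate 1, 792 without IL-15 replicate 2 and 1141 without IL-15 replicate 1, where the condition on that library could not be applied). The 78 differences from Tcm became 45 above 2-fold, 6 under Bonferroni, 37 with filterByExpr, 232 with no filter, 259 with DESeq2, 48 with all 48 libraries and 3 to 282 with 1 library left out. The 3 differences from Tem became 5 with filterByExpr or DESeq2 size factors, 122 with no filter, 56 with DESeq2 and 1 to 139 with 1 library left out. The 251 differences from BBA became 7 under Bonferroni, 685 with no filter, 602 with DESeq2, 84 with all 48 libraries and 50 to 599 with 1 library left out. More of them were positive than negative with filterByExpr (159 against 123) and with all 48 libraries (62 against 22), against 86 and 165 in the fit reported. The 33 differences from AAB became 1 under Bonferroni, 105 with no filter, 126 with DESeq2, 6 with all 48 libraries and 0 to 53 with 1 library left out by edgeR. The cause of these shifts was not tested.

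Of the genes tested by name, 6 that were not called changed direction. Tcf7 was −0.010 with filterByExpr, −0.050 with no filter and −0.18 to 0.20 with 1 library left out. In the same leave-one-out fits Il7r ran from −0.29 to 0.022, Jak3 from −1.04 to 0.21, Stat5a from −0.38 to 0.053, Gzmb from −0.39 to 1.35 and Cd44 from −1.84 to 0.73. With the replicate number as a block 610 genes were called in WT Tnv, and the differences were 237 from Tcm, 36 from Tem, 491 from BBA and 61 from AAB. The libraries share only a number, since no label says what it marks and there are only 2 pairs, whose deviations correlated at 0.34. Idh1 was the only called gene named by rule that lost its call under the block.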

Other observations

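Some further groups of genes were seen only after their values were known, and a part of their members also stand in the lists above. Both tested subunits of soluble guanylate cyclase, the enzyme that makes cyclic GMP in response to nitric oxide, rose. Gucy1b3 was at 0.812 and 0.734 CPM with NC and at 4.52 and 3.30 CPM with IL-15, and Gucy1a3 at 1.62 and 0.565 CPM with NC and 10.2 and 6.66 CPM with IL-15. Of 11 phosphodiesterase genes 2 rose and 1 fell. Of 261 tested zinc finger genes named Zfp, 19 rose (7.28%) and 1 fell, with a median log2 fold change of 0.17, against 3.03% of all genes that rose. Of 26 tested ATP-binding cassette transporters 0 rose and 5 fell, among them Abca1, which exports cholesterol. Of 12 dual specificity phosphatases 0 rose and 4 fell, where 2.58% of all genes tested fell. The falls include Dusp1, Dusp2 and Dusp6, which are given above among the immediate early genes. These groups were picked for how they moved and carry no test.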
